A study of Mus musculus with 288 samples.

Results

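The Mcm2, Mcm3, Mcm4, Mcm5, Mcm6 and Mcm7 genes, with Mki67 and Top2a, were followed across single cells sorted from the mouse upper small intestine to see which cells carry their RNA and with which hormones. The 8 genes were listed by name out of 46078 mouse genes in the table, and the cells were chosen by measured values: 250 cells, out of 3 pools of 96, had at least 20000 reads on mouse genes and at most 20% of those reads on mitochondrial genes. The last cell inside the read limit had 20121 reads and the first outside had 19471, and the mitochondrial shares on either side of the limit were 19.1% and 20.3%. The genes had been put forward as replication genes of endocrine cells. For Mcm2 to Mcm6 the data go against that, since most of their reads lay in 3 cells that had little or no endocrine RNA. Mcm7 was mixed. Endocrine cells had 2 of its 9 and 20 of its 27 reads in the 2 pools sequenced at low depth. In the pool sequenced at high depth they had 453 of 1117. Top2a differed, with 38 of 51 and 27 of 45 reads in endocrine cells in the 2 pools sequenced at low depth, but 500 of 4857 in the pool sequenced at high depth.

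The proteins Mcm2 to Mcm7 form a ring-shaped complex that is loaded on DNA in G1 (licensing) and becomes the core of the replicative helicase in S phase. Their genes are transcribed in cycling cells and are silenced when cells leave the cycle. In the intestine, division is a property of crypt stem and transit amplifying cells, whereas hormone-secreting enteroendocrine cells are mostly postmitotic. Mki67 encodes a protein that coats mitotic chromosomes and is widely used as a marker of cycling cells. Top2a encodes the DNA topoisomerase that untangles sister chromatids, and both of these genes peak later in the cycle than the Mcm genes.

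The cells came from 3 male GLU-Venus mice on a C57BL6 background, aged 20 to 21 weeks, in which the fluorescent protein Venus is driven by the proglucagon promoter. Single cells of the proximal small intestine were sorted by fluorescence into 96-well plates and amplified by Smart-seq2, a method that reads whole transcripts without molecular identifiers. The labels name 3 pools of 96 cells and call every cell an L-cell, the intestinal cell that secretes glucagon-like peptide. According to the results of the study, cells of the 2 mice sequenced at low depth also included non-fluorescent controls, which the labels do not mark. No label ties a pool to a mouse. No mouse was treated, and all carried the transgene.

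Pools SLX-11175 and SLX-11179 were shallow, with medians of 52571 and 70726 reads per cell, and pool SLX-9703 was deep, with a median of 1975706. They contributed 75, 87 and 88 cells. Cells were put into exclusive classes by hormone level in CPM (reads of a gene per 1000000 reads on mouse genes of that cell): Gip-high (29 cells, Gip at least 10000), Gcg-high (54, Gcg at least 10000), Pzp-positive (64, Pzp at least 100), Cck-high (37, Cck at least 10000) and hormone-poor (66, all others). The first 4 classes are called endocrine here and hold 184 cells. The name hormone-poor refers to these 4 genes only: 13 of the 66 cells had at least 10000 CPM of another hormone, Nts (neurotensin) in 12 and Sct (secretin) in 8, with Nts up to 416764 CPM. These 13 cells, of which the deep pool held 2, had 11 of the 10756 Mcm reads of the class, and none had reads of more than 1 Mcm gene. The classes are ranges of a level, and 4, 16, 6 and 16 cells lay within 2-fold of the limits of Gip, Gcg, Pzp and Cck. In the shallow pools, 4 and 3 hormone-poor cells with at least 100000 CPM of plasma cell genes held 64.8% and 46.99% of all hormone-poor reads.

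Because the 6 Mcm genes move together in cycling cells, the sequences before their start sites are shown for the 4 genes whose RefSeq promoter (build GRCm38.p6, 250 bases before to 50 after the start) holds a match to the core letters bound by E2F factors, the regulators of genes for S phase. The letters searched on both strands were TTTCCCGC, TTTCGCGC, TTTGCCGC and TTTGGCGC, and a match overlapping another was counted too. Capitals mark the matches. The Mcm3 promoter is at chr1:20820263-20820562 on the minus strand, that of Mcm5 at chr8:75109259-75109558 on the plus strand, that of Mcm6 at chr1:128359656-128359955 on the minus strand and that of Mcm7 at chr5:138171834-138172133 on the minus strand.
Mcm3: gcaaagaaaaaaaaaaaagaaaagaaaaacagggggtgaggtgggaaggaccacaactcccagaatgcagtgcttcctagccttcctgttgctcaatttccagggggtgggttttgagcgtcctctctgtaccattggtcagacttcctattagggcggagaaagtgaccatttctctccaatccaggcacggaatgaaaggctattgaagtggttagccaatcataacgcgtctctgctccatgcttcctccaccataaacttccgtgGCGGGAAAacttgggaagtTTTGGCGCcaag
Mcm5: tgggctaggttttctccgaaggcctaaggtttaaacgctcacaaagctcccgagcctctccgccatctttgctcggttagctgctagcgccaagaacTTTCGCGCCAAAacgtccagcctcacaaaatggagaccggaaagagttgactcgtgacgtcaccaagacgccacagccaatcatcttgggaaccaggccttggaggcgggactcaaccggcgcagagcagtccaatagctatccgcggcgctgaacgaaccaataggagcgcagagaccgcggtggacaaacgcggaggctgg
Mcm6: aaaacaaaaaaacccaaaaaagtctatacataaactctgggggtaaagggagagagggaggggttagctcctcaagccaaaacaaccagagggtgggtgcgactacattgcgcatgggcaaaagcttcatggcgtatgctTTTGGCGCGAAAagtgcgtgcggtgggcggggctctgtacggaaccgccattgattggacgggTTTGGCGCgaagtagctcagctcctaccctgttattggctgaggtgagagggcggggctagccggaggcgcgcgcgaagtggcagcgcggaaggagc
Mcm7: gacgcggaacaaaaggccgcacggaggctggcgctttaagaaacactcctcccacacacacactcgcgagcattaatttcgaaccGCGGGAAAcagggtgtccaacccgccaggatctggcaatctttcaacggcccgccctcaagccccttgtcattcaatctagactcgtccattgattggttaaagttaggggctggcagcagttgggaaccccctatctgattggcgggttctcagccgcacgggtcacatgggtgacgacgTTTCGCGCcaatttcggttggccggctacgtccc
In Mcm5 and in Mcm6 a TTTCGCGC and a TTTGGCGC on opposite strands overlap in 1 run of capitals. Of all 32851 RefSeq mouse promoters of this length, 744 (2.26%) held at least 1 of these letters. No match lay in the windows of Mcm2, Mki67 and Top2a or in that of the other Mcm7 start site (chr5:138171217-138171516), and a promoter for Mcm4 was not matched. All 7 matched genes had the letters CCAAT on either strand, as did 37.4% of all promoters, and Top2a had 6 such matches. A match describes the letters only and says nothing about binding.

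In each pool, 1 cell carried the Mcm genes as a set. After each cell was thinned at random to 20000 reads on mouse genes, 3 of 250 cells had a read of at least 3 of the 6 Mcm genes (1.20%, exact 95% interval 0.248% to 3.47%), and all 3 had reads of all 6. They are called MCM-bearing below. Pool SLX-11175 held 1 of 75 cells (cell 89), pool SLX-11179 held 1 of 87 (cell 94) and pool SLX-9703 held 1 of 88 (cell 73). All 3 were hormone-poor. None of the 184 endocrine cells qualified, and a count of 0 allows a share of up to 1.63% (3 cells; the exact 95% upper limit is 1.98%). With all reads in place of thinned ones, 9 cells had at least 3 of the genes. The 6 added cells were all in the deep pool, and 4 of them were endocrine. The split uses the genes themselves, so it is a description without a test. Thinning made total reads equal, but not the reads left for other genes: 12 hormone and amine synthesis genes took medians of 245441, 214064 and 269632 CPM in the endocrine cells of the 3 pools, against 227, 1468 and 5280 CPM in the hormone-poor cells. Intervals and limits cover counting error only.

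**Figure D1:**
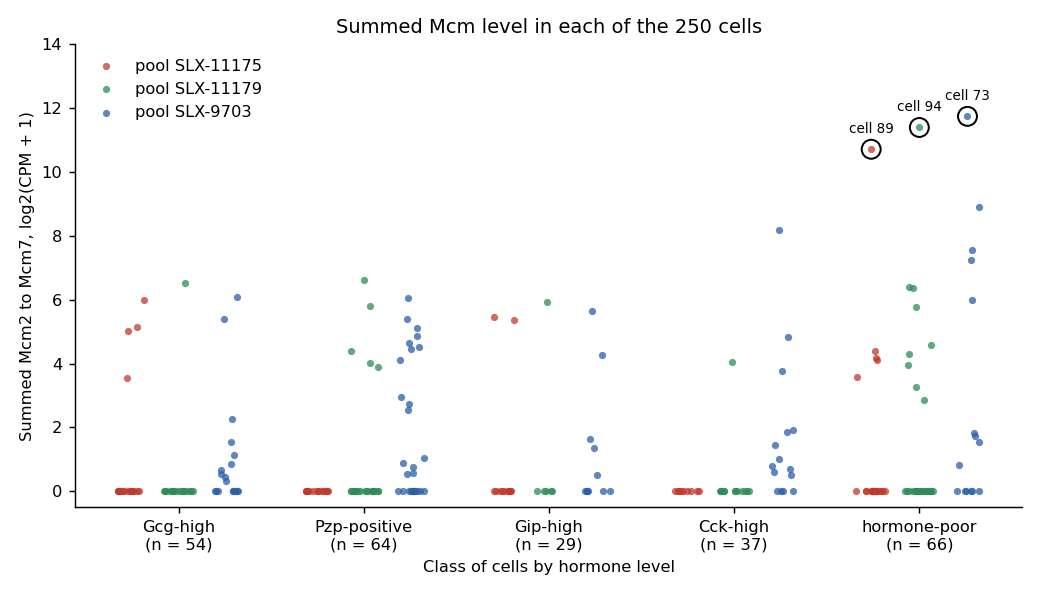
Summed level of Mcm2 to Mcm7 in each of the 250 cells, as log2(CPM + 1), by hormone class (horizontal axis) and pool (colour); each point is 1 cell and the circles mark the 3 MCM-bearing cells. These lie at 1668, 2678 and 3408 CPM, whereas the highest endocrine cell, a Cck-high cell of the deep pool, has 287 CPM.

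The MCM-bearing cells held most of the Mcm reads. Cell 89 had 139 Mcm reads, 83.2% of those of its pool; cell 94 had 293, or 73.6%; and cell 73 had 9522, or 80.7%. Together they made up 80.5% of all Mcm reads in the 250 cells. The summed level was 1668 CPM in cell 89, 2678 CPM in cell 94 and 3408 CPM in cell 73. The median of the endocrine cells in the deep pool was 0.462 CPM, which is close to the value of 1 read. The next highest cell of any pool was cell 23 of pool SLX-9703, also hormone-poor, at 477 CPM.

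Subunit by subunit, the same cells led. Mcm2 was at 204 CPM in cell 89, at 466 CPM in cell 94 and at 707 CPM in cell 73. Mcm3 was at 240.03, 366 and 799.5 CPM in the same order. Mcm4 was at 144, 109.7 and 433 CPM. Each of these cells was the highest of its pool for all of Mcm2 to Mcm6. Mcm5 was at 348, 347 and 372 CPM, the most even of the 6 genes across the 3 cells. Mcm6 was at 648, 1325 and 901.5 CPM. Mcm7 was at 84.01, 63.97 and 194 CPM, and was the exception to the order: in pool SLX-11179 a Pzp-positive cell (cell 54) was higher, at 95.9 CPM from 13 reads.

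Divided by exon length, the subunits were not even, although the proteins act as a ring with equal parts of each. The length joined all annotated exons of a gene, from 3589 bases for Mcm4 to 6956 for Mcm2. It can exceed the length of a single transcript, which lowers the value per kilobase. How far this shaped the order was not tested. Per kilobase of exon, Mcm6 was highest in cell 89, at 139 CPM per kb (exact 95% Poisson interval 104 to 181), and in cell 94, at 284 (239.7 to 334). In cell 73 Mcm3 was highest at 213 (204 to 222), followed by Mcm6 at 193 (186 to 201). Mcm7 was lowest in all 3 cells, at 18.98 (7.63 to 39.1), 14.5 (5.81 to 29.8) and 43.9 (40.3 to 47.8) CPM per kb. The Mcm7 and Mcm6 intervals did not overlap in any of these cells. Reads of a gene are not independent molecules here, and the intervals cover counting error only. Mcm7 shares 64 bases with Cops6 and 421 with Ap4m1, both on the opposite strand, and holds the microRNA genes Mir25, Mir93 and Mir106b, so that its count can depend on how overlapping reads were assigned.

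Mki67 and Top2a were low beside the Mcm genes in the shallow MCM-bearing cells. Cell 89 had 5 Mki67 reads (60.01 CPM), next after the highest cell of its pool, and 2 Top2a reads. Cell 94 had no Mki67 read and 1 Top2a read (9.14 CPM). Cell 73 had 624 Mki67 reads (223 CPM) and 2524 Top2a reads (903 CPM). The shallow pools' highest Mki67 cells were other hormone-poor cells, cell 96 of pool SLX-11175 with 10 reads (202 CPM) and cell 51 of pool SLX-11179 with 7 reads (100.5 CPM), each with 1 Mcm read. The deep pool's highest Mki67 cell was cell 79, with 1853 reads (833 CPM) beside 1765 Top2a reads (793 CPM). This hormone-poor cell had 140 Mcm reads in all (62.9 CPM), from Mcm4, Mcm5 and Mcm6, and none of Mcm2, Mcm3 or Mcm7.

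**Figure D2:**
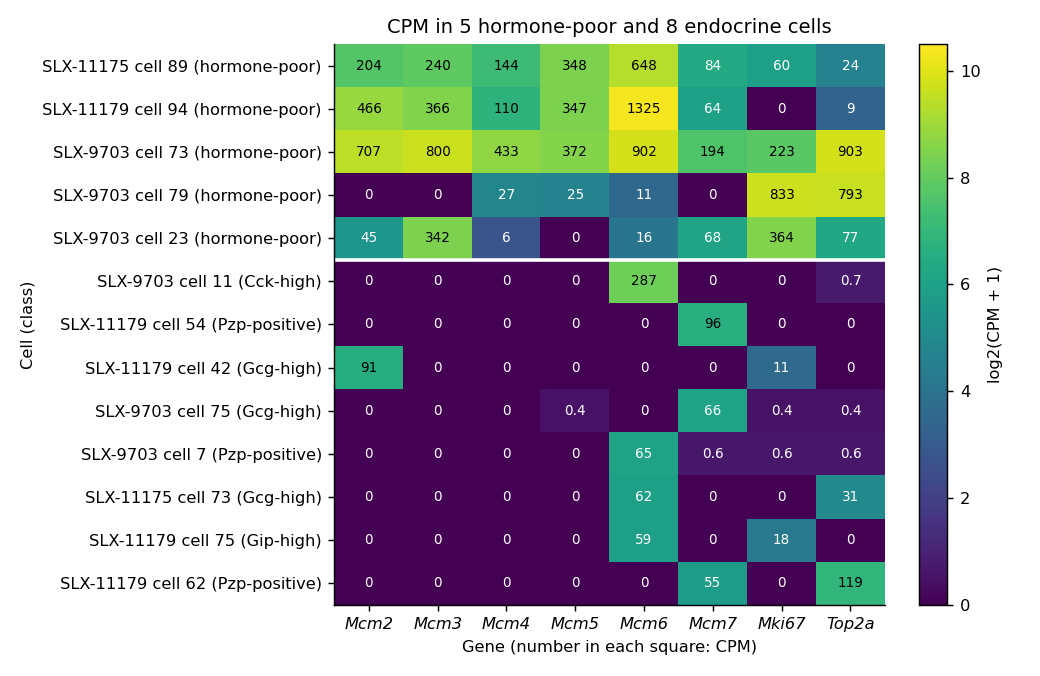
CPM of the 8 genes (columns) in 5 hormone-poor cells (upper rows) and in the 8 endocrine cells with the highest summed Mcm level (lower rows); colour is log2(CPM + 1) and each square carries its CPM. The first 3 rows, the MCM-bearing cells, have all 6 Mcm genes, whereas each endocrine cell has at most 1 read outside its leading Mcm gene.

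The rest of the cell cycle programme was read in the same cells. Of 20 genes for origin licensing and helicase activation other than Mcm2 to Mcm7, cell 89 had reads of 12, cell 94 of 11 and cell 73 of 16, whereas the median endocrine cell of the same pools had 2, 3 and 6. Cdt1, which loads the Mcm ring onto origins, was at 192 CPM in cell 89, at 667 CPM in cell 94 and at 139 CPM in cell 73. Gmnn, the inhibitor of Cdt1, was at 120.01, 36.6 and 298 CPM. Of 28 genes for the replication fork and nucleotide supply, cell 89 had 20, cell 94 had 19 and cell 73 had all 28, against endocrine medians of 3, 4 and 11. Rrm1, a subunit of the enzyme that makes deoxynucleotides, was at 492, 219 and 350.03 CPM, and Dut, which removes dUTP, at 456, 265 and 499.98 CPM.

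Mitosis genes separated the cells. Of 20 mitosis genes, cell 89 had reads of 7 and cell 94 of 3, whereas cells 73 and 79 had all 20. These counts are not matched for depth: cells 89 and 94 had 83323 and 109424 reads, and cells 73 and 79 had 2794087 and 2225294. Their summed level was 876 CPM in cell 89, 356 CPM in cell 94, 6486 CPM in cell 73 and 13316 CPM in cell 79, and the highest endocrine cell of the deep pool was at 497 CPM. Ccnb2, a mitotic cyclin, was at 0 CPM in cells 89 and 94, at 618 CPM in cell 73 and at 1607 CPM in cell 79. Cdk1, the mitotic kinase, was at 528 CPM in cell 89, 0 CPM in cell 94, 201 CPM in cell 73 and 1025 CPM in cell 79. Cell 79 thus had a higher mitosis level than cell 73 and a lower summed Mcm level (62.9 against 3408 CPM). Cell 23, by contrast, had Mcm3 at 342 CPM, Mki67 at 364 CPM and Pola1, the DNA polymerase alpha catalytic subunit, at 432 CPM, with no mitosis gene above 2.91 CPM.

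**Figure D3:**
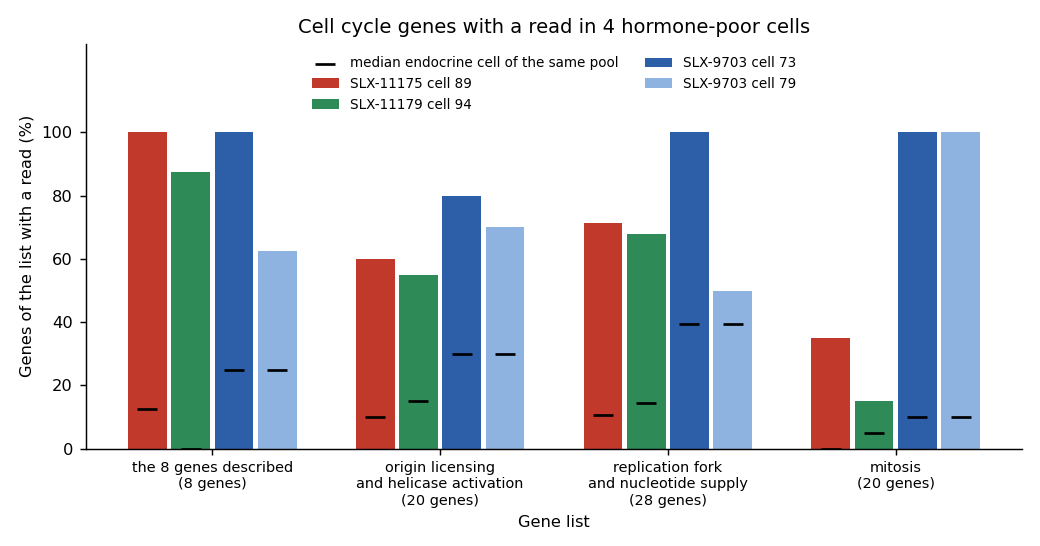
Percentage of the genes of each list (horizontal axis) with at least 1 read in the 3 MCM-bearing cells and in cell 79 of pool SLX-9703; the black marks give the median endocrine cell of the same pool. Replication genes are read in all 4 cells, and all 20 mitosis genes in the 2 cells of the deep pool.

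The MCM-bearing cells and cell 79 had little or no endocrine RNA. Cells 89 and 94 had no read of any of 10 endocrine genes (Chga, Chgb, Scg2, Scg3, Scg5, Pcsk1, Neurod1, Pax6, Isl1 and Nkx2-2), whose summed level in endocrine cells had medians of 8044 and 10734 CPM in their pools. In cell 73 these genes summed to 74.1 CPM, and in cell 79 to 111, against a median of 17885 CPM in the deep pool's endocrine cells. Gcg had 3 reads in cell 89 and 1 read in cell 94, and was at 149.6 CPM in cell 73 and at 167 CPM in cell 79. Cck, which was over 10000 CPM in 156 of the 250 cells, was at 84.01, 82.2, 295 and 377 CPM. Pyy and Tph1 had at most 1 read in any of the 4 cells, and Neurog3, the factor that marks endocrine progenitors, had none. Of the 8 genes of the endocrine progenitor list, cell 89 had 0, cell 94 had 2 (91.4 CPM in sum, against an endocrine median of 105 CPM in its pool), cell 73 had 1 and cell 79 had 2. The sum in cell 79, 284.01 CPM, lay above the endocrine median of 274 CPM in the deep pool, and 283.6 CPM of it came from Hes6, which encodes a regulator of the Notch pathway. According to the results of the study, the cells taken from the mouse sequenced at high depth were all fluorescent.

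Cells 62 and 51 of pool SLX-11179 had part of the programme beside endocrine RNA. Pzp-positive cell 62 had reads of 13 of the 28 fork and nucleotide genes, with a sum of 1505 CPM that was the highest of the pool's endocrine cells, and of 4 of the 20 mitosis genes (146 CPM). It also had 9 of the 10 endocrine genes (6176 CPM), all 8 stem and transit amplifying genes (5309 CPM) and 2 of the 10 leukocyte genes (2746 CPM). Of the Mcm genes it had Mcm7 only. Hormone-poor cell 51 had 12 of the 28 fork and nucleotide genes (962 CPM) and 7 of the 20 mitosis genes, at 388 CPM in sum against 356 CPM in cell 94. It had 7 of the 10 endocrine genes (2124 CPM) and 1 Mcm read.

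Other marker genes differed between the shallow cells and the deep ones. Cell 94 had 7 of 8 genes of the stem and transit amplifying list, with Olfm4 at 8481, Slc12a2 at 759 and Ascl2 at 119 CPM, and the list summed to 9678 CPM against a maximum of 5309 CPM in the endocrine cells of its pool. Cell 89 had 5 of the 8, with Smoc2 at 732 and Olfm4 at 300.04 CPM. Lgr5, a defining stem cell marker, was at 0 CPM in cell 89 and at 9.14 CPM (1 read) in cell 94. Both cells also had Fabp2, a fatty acid binding protein of the intestinal epithelium, at 924 and 713 CPM, but only 2 and 1 of the 8 genes of the enterocyte list, which summed to 936 and 713 CPM against endocrine medians of 1656 and 2146 CPM. They had Cd74, the invariant chain of MHC class II, at 1296 and 466 CPM, with Ptprc, Cd3e and Cd3g at 0. Of the 5 plasma cell genes, cell 89 had 4 (2220 CPM in sum) and cell 94 had 3 (1188 CPM). The other hormone-poor cells of their pools had medians of 2319 and 261 CPM for this list. Its maxima in the endocrine cells were 991 and 1388 CPM. Cell 94 also had the Paneth cell genes Lyz1, a lysozyme, at 338 CPM and Defa24, a defensin with near-identical copies, at 384 CPM. The Paneth list was at 0 in the other 27 hormone-poor cells of that pool and at most 146 CPM in its endocrine cells, and was at 0 in cell 89. In the deep pool the leukocyte genes moved instead. Ptprc, which encodes the pan-leukocyte antigen CD45, was at 644 CPM in cell 73 and at 1150 CPM in cell 79, Cd3e at 237 and 323 CPM, and Cd3g at 311 and 691 CPM. Olfm4 and Smoc2 had no read in cells 73 and 79, and Ascl2 had 1. Of the 10 leukocyte genes, 7 had reads in cell 73 and 6 in cell 79, with sums of 3120 and 2250 CPM, whereas the deep pool's endocrine cells had a median of 1.67 and a maximum of 1650 CPM, in Gcg-high cell 78. Another hormone-poor cell of the pool, cell 72, was higher than both, at 3329 CPM, with 177 Mcm6 reads (188 CPM) and no read of the other 7 genes. Genes of the enterocyte list summed to 5.73 CPM in cell 73 and to 10.3 CPM in cell 79, against a median of 2740 CPM in those endocrine cells. The part of these markers in the Mcm levels was not tested, and cells caught together in a well were not looked for.

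The genes whose level followed the summed Mcm level across the deep pool were ranked by Pearson correlation of log2(CPM + 1) over its 88 cells, among 13232 genes read in at least 20% of them. The leading genes were Cyfip2 (r = 0.61), Rrp1b (r = 0.57), Laptm5 (r = 0.57), Gimap4 (r = 0.56) and Ighm (r = 0.56). Next came Rac2 (r = 0.56), Fam111a (r = 0.56), Selplg (r = 0.54), Cd247 (r = 0.54) and Rhof (r = 0.54). Laptm5, Gimap4, Rac2, Selplg and Cd247 are known as genes of haematopoietic cells. In the shallow pools the highest r of these 10 genes was 0.40 (Rrp1b in pool SLX-11175), and for Rac2 the values were -0.04 and -0.05. The cells share a library pool and unequal depth, so these are descriptions.

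In the endocrine cells the Mcm genes were read as scattered single genes. Of 184 endocrine cells, 56 (30.4%, exact 95% interval 23.9% to 37.6%) had at least 1 Mcm read with all reads used: 15 of 54 Gcg-high, 21 of 64 Pzp-positive, 8 of 29 Gip-high and 12 of 37 Cck-high cells. These shares moved with depth, from 11.5% and 13.6% in the shallow pools to 57.5% in the deep pool. In 42 of the 56 cells the reads came from 1 Mcm gene, in 10 from 2 and in 4 from 3 or more. Most hormone-poor carriers had the same pattern, so it was not particular to endocrine cells. Of 66 hormone-poor cells, 23 (34.8%) had an Mcm read with all reads used. In 15 of these the reads came from 1 Mcm gene and in 3 from 2, and only the 3 MCM-bearing cells had all 6. After thinning to 20000 reads, 19 of 184 endocrine cells (10.3%) and 12 of 66 hormone-poor cells (18.2%) had an Mcm read, and no endocrine cell had more than 1 Mcm gene. The hormone medians of the carriers differed by pool. In the deep pool the median Cck level was 144032 CPM in 42 carriers and 127603 CPM in the 31 other endocrine cells, and the median Gcg level was 943 against 531 CPM. In pool SLX-11175 it was 44943 CPM in 6 carriers and 127875 CPM in 46 others, and the median Gcg level was 101429 against 1755 CPM. In pool SLX-11179 the median Cck level was 82312 CPM in 8 carriers and 108568 CPM in 51 others, and the median Gcg level was 104 against 1404 CPM. The median Pzp level was 536 against 0 CPM there, 0 in both groups of pool SLX-11175 and 1.30 against 2.21 CPM in the deep pool. These medians mix the 4 classes, and the differences were not tested.

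Where an endocrine cell had more than a few Mcm reads, they were nearly all of 1 gene. Of 18 endocrine cells with at least 10 Mcm reads, 15 had at least 90% of them in a single Mcm gene. Cck-high cell 11 of the deep pool had 420 reads of Mcm6 (287 CPM), with Cck at 143371 CPM, and no read of the other 5. Gcg-high cell 75 had 152 Mcm7 reads and 1 of Mcm5, with Gcg at 148503 CPM. Gip-high cell 49 had 148 Mcm4 reads and 1 other, with Gip at 534698 CPM. None of these 3 cells had more than 1 read of the other subunits. Gcg-high cell 78 came nearest to a set, with 5 of the 6 genes, of which Mcm2 had 167 of 179 reads. Of the endocrine cells with an Mcm read, 12 also had an Mki67 read, and 4 of these had more than 3.

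Mcm3 and Mcm5 were the subunits that endocrine cells lacked most. Over all 184 cells, with 160787039 reads on mouse genes in all, Mcm3 had 7 reads in 7 cells and Mcm5 had 6 reads in 5 cells. The other 4 subunits had more: Mcm2 had 320 reads in 14 cells, Mcm4 177 in 9, Mcm6 626 in 17 and Mcm7 475 in 24. In the shallow pools no endocrine cell had a read of Mcm3, Mcm4 or Mcm5. The MCM-bearing cells, in contrast, had 20, 40 and 2234 reads of Mcm3, and 29, 38 and 1040 of Mcm5.

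Pairs of Mcm genes were correlated over all cells, but not among the endocrine cells. Over all cells, the median Pearson r of the 15 pairs, on log2(CPM + 1), was 0.65 in pool SLX-11175 (75 cells), 0.51 in pool SLX-11179 (87 cells) and 0.52 in pool SLX-9703 (88 cells). Among endocrine cells it was -0.04, -0.03 and -0.04, over 3, 3 and 15 pairs that could be computed. Without the MCM-bearing cells it was -0.03, -0.03 and 0.16. Weak correlations in such sparse counts carry no finding.

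The share of reads in the single highest cell was compared with that of other genes. Of genes with at least 20 reads in a pool, the highest cell held at least 50% of the reads for 9.39% in pool SLX-11175, 8.76% in pool SLX-11179 and 17.9% in pool SLX-9703. Of the Mcm genes with as many reads, this was so for 4 of 4, 3 of 5 and 5 of 6. In the deep pool the top cell held 85.6% of the Mcm2 reads, 90.2% of Mcm3, 83.2% of Mcm4, 94.4% of Mcm5 and 75.4% of Mcm6. Mcm7 stood apart with 48.6%, from 22 cells with a read, 17 of them with more than 3 reads. For Mki67 the top cell of the deep pool held 64.7%, and cells 79, 73 and 23 had 1853, 624 and 250 of its 2865 reads. The shares are a description, since genes with few reads reach high values more readily.

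**Figure D4:**
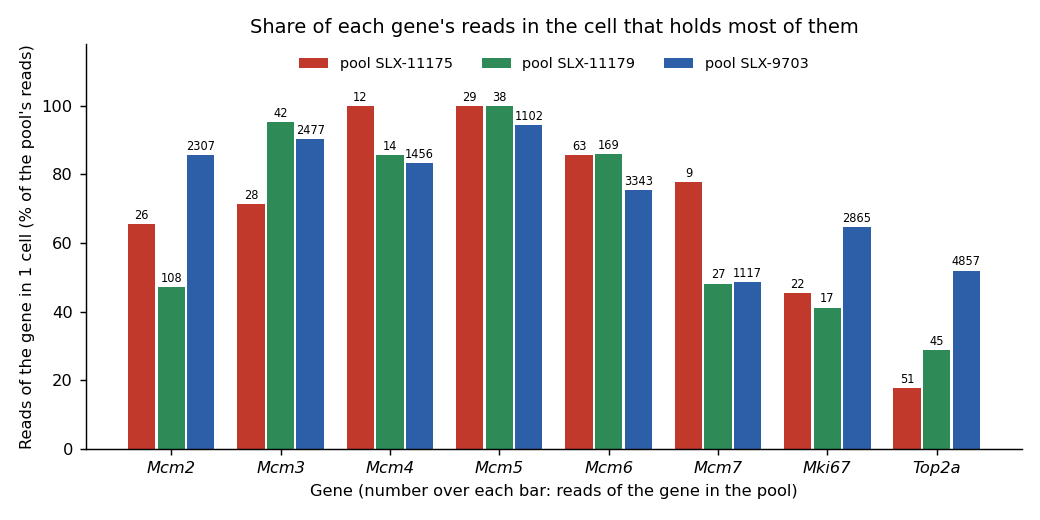
Percentage of each gene's reads in a pool that lay in the 1 cell with most of them, for the 8 genes (horizontal axis) and 3 pools (colours); the number over each bar is the gene's reads in the pool. Mcm5 reached 100% in both shallow pools, whereas Top2a stayed at 17.6% and 28.9% there.

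With all reads used, Top2a was spread more widely than any other of the 8 genes, at very low counts. It had a read in 32 of 75 cells of pool SLX-11175, in 24 of 87 of pool SLX-11179 and in 58 of 88 of pool SLX-9703. In 31, 22 and 43 of these cells it had only 1 to 3 reads. It was read in 84 of 184 endocrine cells (45.7%, exact 95% interval 38.3% to 53.1%) and in 30 of 66 hormone-poor cells (45.5%, exact 95% interval 33.1% to 58.2%), but the pools differed. In pool SLX-11175 these were 23 of 52 endocrine and 9 of 23 hormone-poor cells, in pool SLX-11179 13 of 59 and 11 of 28, and in the deep pool 48 of 73 and 10 of 15. After thinning to 20000 reads they were 11 of 52 and 3 of 23, 7 of 59 and 4 of 28, and 3 of 73 and 3 of 15 in the same order, with no test. After thinning, the share of cells with a Top2a read was 18.7%, 12.6% and 6.82% in the 3 pools. It was therefore lower, not higher, in the pool with most reads per cell. In that pool, after thinning, Mcm7 was read in 7.95% of cells and Mcm6 in 6.82%, so Top2a did not lead there. In the shallow pools the highest Top2a cells were endocrine: Gcg-high cell 57 with 9 reads (139 CPM) and no Mcm read, and Pzp-positive cell 62 with 13 reads (119 CPM) and 6 Mcm7 reads. Top2a overlaps 2 small nucleolar RNA genes.

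**Figure D5:**
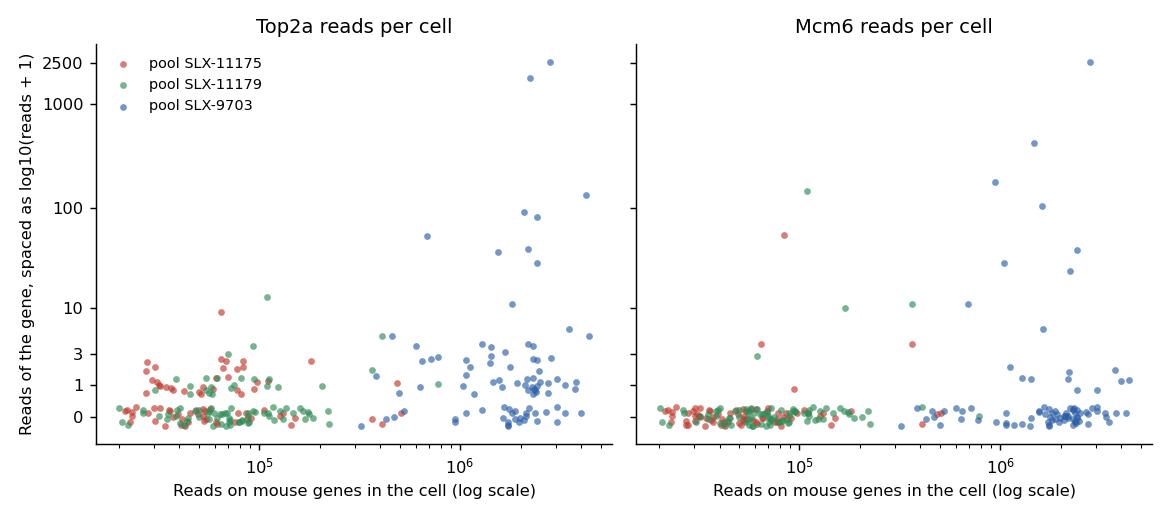
Reads of Top2a (left) and Mcm6 (right) per cell, spaced as log10(reads + 1) with a small jitter up to 3 reads, against the reads on mouse genes in the cell (log axis); each point is 1 of the 250 cells, coloured by pool. Top2a has 1 to 3 reads in 31, 22 and 43 cells of the 3 pools, whereas Mcm6 is at 0 in most cells.

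To compare classes across pools, reads were summed over the cells of each pool and class. The hormone-poor sums against the endocrine sums gave these levels. Mcm3 was at 10.3 CPM against 0 in pool SLX-11175 and at 12.7 against 0 in pool SLX-11179, at least 10.98-fold and 21.9-fold higher with the endocrine sum set to 3 reads, and at 139.7 against 0.0459 CPM in the deep pool. Mcm5 was at 10.7 against 0 CPM, 11.5 against 0 and 62.01 against 0.0394. Mcm6 was at 21.4 against 1.56 CPM (13.6-fold, exact 95% counting interval 5.53 to 43.6), 48.2 against 1.94 (24.8-fold, 13.2 to 52.8) and 154.6 against 4.01 (38.6-fold, 35.3 to 42.2). Hormone-poor sums were higher in all 3 pools for Mcm2 to Mcm6. Mcm7 was at 2.58 against 0.626, 2.12 against 3.88 and 37.6 against 2.97 CPM. The second pool was thus lower on CPM, at 0.547-fold, but the exact 95% counting interval of 0.195 to 1.35 spans 1. The scaling factors (TMM) of the edgeR fit below were 0.654 for the hormone-poor sum there and 0.942 to 1.35 for the endocrine sums. That scaling narrows the gap. Top2a was at 4.79 against 11.9 CPM, 5.46 against 5.24 and 246 against 3.28. With TMM scaling its hormone-poor sum was at 14.4 in pool SLX-11175, against 6.65 to 15.6 in the endocrine classes. In pool SLX-11179 it was at 8.92 against 1.34 to 6.47, and in the deep pool at 172 against 0.897 to 4.49. Only the deep pool had a clearly higher hormone-poor sum under both scalings. A difference between such sums cannot tell apart more cells with a gene and more RNA per cell.

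Without the 3 MCM-bearing cells, most of the difference was gone. The summed Mcm level of the hormone-poor cells fell from 55.98 to 4.94 CPM in pool SLX-11175, against 4.69 in the endocrine cells. In pool SLX-11179 it fell from 108 to 20.1 CPM, against 7.95, and in the deep pool from 580 to 48.7 CPM, against 10.2. Of the 725 Mcm reads left in the hormone-poor cells of the deep pool, 328 lay in cell 23, 177 in cell 72 and 140 in cell 79. The remaining ratio to the endocrine cells was 1.05-fold in pool SLX-11175 (exact 95% counting interval 0.461 to 2.37), 2.52-fold (1.68 to 3.83) in pool SLX-11179 and 4.78-fold (4.37 to 5.22) in the deep pool. These ratios are on CPM. With all cells, the TMM factor in pool SLX-11175 was 0.358 for the hormone-poor sum and 0.738 to 1.17 for the endocrine sums. In the deep pool it was 1.49 against 0.938 to 1.48. Scaling by such factors would raise the ratio in both shallow pools and lower it in the deep pool.

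The quasi-likelihood test of edgeR on these sums, with pool as a block, called 789 of 10749 genes at an adjusted p under 0.05 (7.34%), of which 447 were higher in hormone-poor cells (4.16%). Of the 8 genes, 5 passed the filter on low counts, and Mcm4, Mcm7 and Mki67 did not. The 5 that passed were all higher: Mcm2 by 5.80 ± 1.06 (log2, SE, adjusted p = 0.00244), Mcm3 (adjusted p = 7.04e-08), Mcm5 (adjusted p = 7.54e-07), Mcm6 by 5.37 ± 1.08 (adjusted p = 0.00523) and Top2a by 4.27 ± 0.95 (adjusted p = 0.00977). Fitted fold changes of Mcm3 and Mcm5 depend on the near-empty endocrine sums and are not given. Genes with few endocrine reads pass the filter through the hormone-poor sums, so the count of 5 is no support in itself. The calls rest on few cells: without the 3 MCM-bearing cells, 2 of the 8 were tested, of which Top2a was called (3.78, adjusted p = 0.0140 by edgeR) and Mcm6 was not (2.05, adjusted p = 0.469). Without pool SLX-9703, Top2a was at 0.99 (adjusted p = 0.737 by edgeR). The p-values measure how far class differences varied across the 3 pools once each pool's own level was taken out. That spread is shared over all 5 classes. The plates of the pools may also differ for technical reasons.

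Other cell cycle genes were counted in the same comparison. Of the 20 genes for licensing and helicase activation, 10 were tested and 1 was higher, Cdt1 (adjusted p = 0.000374 by edgeR), with 0 lower. Of 28 fork and nucleotide genes, 24 were tested, 7 were higher (Rfc1, Rfc4, Tk1, Rpa2, Rrm1, Pold1 and Lig1) and 1 was lower, the polymerase delta subunit Pold2. Lig1, the ligase that joins Okazaki fragments, was higher by 3.91 ± 0.69 (log2, SE, adjusted p = 0.00187 by edgeR). Only 1 of 20 mitosis genes was tested, and it was higher, the cyclin gene Ccna2 (6.87 ± 1.20, adjusted p = 0.00174 by edgeR). The mitosis list summed to endocrine medians of 0 CPM in pool SLX-11175, 7.38 in pool SLX-11179 and 1.84 in the deep pool. Ccna2 can thus have passed the filter through the hormone-poor sums, so its call is no support in itself. Cdt1 may have passed in the same way, since the MCM-bearing cells carried it, so its call is no support in itself either. No value without the MCM-bearing cells is given for Ccna2, Cdt1 or the fork and nucleotide genes. Of 26 genes of cell cycle entry and arrest, 18 were tested. Ccnd2, Myc and Cdkn2c were higher, and Cdkn1a, which encodes the arrest protein p21, was lower (-1.65 ± 0.33, adjusted p = 0.00486 by edgeR). The median change over each of the first 2 lists was 1.20 and 2.00 on the log2 scale and 0.27 over the entry and arrest list, against 0.09 over all genes tested. These medians include the MCM-bearing cells. Plasma cell genes were higher in the class as well, 4 of 4 tested, and so was 1 of the 2 leukocyte genes tested. Of 8 enterocyte genes, all tested, 4 were higher (Alpi, Fabp1, Apoa1 and Fabp2) and 1 was lower (Sis), with a median of 2.22 on the log2 scale. Of 10 endocrine genes, 0 were higher and 7 lower. The part of those cells in the result was not tested. Without the plasma cells the filter on low counts let in Mcm4 and Mki67 too, and 7 of the 8 genes were called higher. Without the 13 cells high in another hormone, the count was 5.

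Between the endocrine classes no difference in the genes passed the test. Gcg-high against Pzp-positive cells gave 0 of 5 tested, with 20 of 10749 genes called (0.186%). Gip-high against Gcg-high and Pzp-positive cells gave 0 of 5, with 180 called (1.67%). Cck-high against Gcg-high and Pzp-positive cells gave 0 of 5, with 0 called (0%). None of the 5 had an unadjusted p under 0.05 by edgeR, as 4.81%, 13.4% and 5.61% of all genes tested had in the same order, and DESeq2 called none of them either. The value farthest from 0 was Mcm2 in Cck-high cells (-4.55 ± 2.28, log2, SE, adjusted p = 0.901 by edgeR), a difference between 0 and 127 to 172 reads in the deep pool's classes that lay mostly in cells 88 and 78. Without the filter on low counts, Mcm4 was called higher in Gip-high cells (6.06, adjusted p = 0.0212 by edgeR), and its 148 reads in that class of the deep pool all lay in cell 49.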

How the data were processed

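The authors aligned the reads of the single-cell libraries with GSNAP to mm10 and counted reads per gene with HTSeq 0.5.3p3, per the labels, and deposited raw counts. Rows that name no gene held 77.6% of all counts and spike-ins 5.34%; both were left out, which left 17.1% on 46078 mouse genes. A further 4 columns matched no sample and were not used. Whether strand was used in counting is not given in the sources used here. Positions and exon lengths came from the GENCODE annotation of GRCm38, and promoters from RefSeq.

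Each cell's CPM was its reads over its mouse gene reads. The cells of each pool and class were summed (at least 3 cells a sum) and fitted with edgeR 4.0.16 (R 4.3.3; filterByExpr, TMM, glmQLFit, glmQLFTest, Benjamini-Hochberg over all genes tested), with pool as a block. DESeq2 1.42.0 was an alternative. The tests were tried on simulated counts, and the outcome is not reported here. Sums of the same pool deviated together: 30 same-pool pairs of classes correlated at 0.03 to 0.39, and 60 pairs from different pools at -0.22 to 0.09. Doublets were not called. Cells were sorted into wells, and according to the study preparation and sorting did not fully remove small clumps of cells.

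The 8 genes, the gene and marker lists and the tests were chosen with earlier results of these data known. The genes named are the 8, members of the lists and the 10 most like the summed Mcm level. The list rule (a read in at least 10% of cells, up to 6 genes a list) was not kept where a listed gene is named in a described cell or was called. Cells 23, 51, 57, 62, 72, 79 and 96 and the endocrine cells named were chosen after their values were seen.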

Additional observations from a re-analysis of the deposited data

Results flagged for a closer look

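The cells outside the limits on reads and mitochondrial share, which no comparison used, also held reads of these genes, above the 3 reads that a count of 0 allows. The 38 cells had 56 Mcm reads, 168 Mki67 reads and 216 Top2a reads, and 8 of them had an Mcm read. Most lay in cell 49 of pool SLX-11179, over the mitochondrial limit at 22.5%, which had 145 Mki67 reads (539 CPM), 137 Top2a reads (509 CPM), 27 of Mcm3, 9 of Mcm5 and 2 of Mcm7. It had 2 Gcg reads and 29 Cck reads, and none of Mcm2, Mcm4 or Mcm6. Cells 88 of pool SLX-11175 and 92 of pool SLX-11179 had 26 and 40 Top2a reads, at mitochondrial shares of 20.6% and 48.2%. The source of these reads was not tested.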

How the results depend on the processing

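Of the 8 genes, 5 were called higher in hormone-poor cells. The count was 2 with a mitochondrial limit of 10%, which removes cells 89 and 94 (13.5% and 11.7% mitochondrial reads), 0 with each cell thinned to 20000 reads, where none of the 8 was tested, and 1 without the MCM-bearing cells (chosen after seeing the data). It was 4 to 8 when each pool was left out in turn: 7 without pool SLX-11175, 8 without pool SLX-11179 and 4 without pool SLX-9703. Without the replicate block of pool, 5 were called. It was also 5 without the 13 hormone-poor cells high in another hormone (chosen after seeing the data), where 1451 genes in all were called. Mcm6 kept its direction but missed the threshold with DESeq2 (adjusted p = 0.0539), with the 10% limit (adjusted p = 0.107 by edgeR) and without the MCM-bearing cells. In Gip-high cells 1 of the 8 genes, Mcm4, was called without the filter on low counts, and 1, again Mcm4, without the plasma cells (chosen after seeing the data); the cause was not tested. MCM-bearing cells made up 1.20% of cells and 3.60% (9 cells) with all reads in place of thinned ones, where 4 of the 9 were endocrine; another thinning seed gave 4 cells, and thinning to 50000 reads gave 4 of 196.

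The number of genes called ranged from 299 to 2129 (main 789) in hormone-poor cells, 1 to 105 (main 20) in Gcg-high against Pzp-positive, 38 to 566 (main 180) in Gip-high and 0 to 54 (main 0) in Cck-high cells. The lowest counts in the first 3 came from leaving out 1 pool (SLX-9703, SLX-11179 and SLX-11175). At the shallow pools' median depths, 1 read is worth 19.02 and 14.1 CPM, so lower levels in a cell could not be seen there.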
